A study of Mus musculus with 10 samples.

Results

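The Mas-related G protein-coupled receptors are a family that in the mouse marks classes of small sensory neurons. The 8 receptors described here are *Mrgprd*, *Mrgpra3*, *Mrgprb4*, *Mrgprb5*, *Mrgprx1*, *Mrgpre*, *Mrgprf* and *Mrgprh*. They were taken by symbol from the 55414 genes of the count files, where each of them was found once. The libraries hold RNA of dorsal root ganglia (DRG), the ganglia that contain the cell bodies of somatosensory neurons and their glia, dissected at E18.5 from 5 control and from 5 *WD1* cKO embryos. The questions were which of these receptors were already transcribed in the ganglia at this stage, shortly before birth, and whether their levels differed between the groups.

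All embryos carried *Dach1* flox/flox alleles, from mice of mixed C57Bl/6J and CD1 background. In *WD1* cKO embryos the Wnt1Cre allele, active in the neural crest, removes 1 floxed exon of *Dach1*, a transcriptional corepressor of the sno/ski family. Control embryos lack the Cre. Neural crest gives rise to both the neurons and the glia of the ganglia, so the deletion is not limited to nociceptors, and *WD1* cKO mice die after birth, which leaves no adult stage. The labels place the Cre genotype with the controls and the Cre-free genotype with the cKO embryos, opposite to the sample titles, and the titles were followed. *Dach1* was counted at 35, 38.4, 41.6, 37.0 and 37.3 CPM (counts scaled to a common library size) in control libraries 1 to 5 and at 19.1, 20.7, 19.5, 20.2 and 20.4 CPM in *WD1* cKO libraries 1 to 5. The libraries titled cKO were thus the lower ones without overlap, with a log2 fold change of -0.92 (95% interval from -1.03 to -0.81, edgeR's quasi-likelihood test, adjusted p = 5.48e-06).

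Library totals ranged from 19757596 to 34796562 counts. CPM were scaled by edgeR's TMM factors, and a gene was tested when it had at least 10 counts in at least 5 libraries. Pan-neuronal genes summed to between 13800 and 17000 CPM and glia genes to between 1690 and 2070 CPM, so that both cell types named in the labels were represented. In bulk ganglia, fewer cells of a type and less RNA per cell cannot be told apart. The labels do not say which embryos share a litter, so p-values measure the spread between these libraries only.

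As background, Mas-related receptors couple to G proteins of the Gq and Gi classes, and several excite nociceptors through phospholipase C beta and TRP channels. *Mrgprd*, a receptor for beta-alanine, marks the large class of non-peptidergic nociceptors that end in the epidermis. *Mrgpra3*, a chloroquine receptor, and *Mrgprx1*, also known as *Mrgprc11* and a receptor for peptides of the BAM type, mark itch neurons. *Mrgprb4* marks neurons that respond to gentle stroking, and *Mrgprb5* is found in the same lineage. *Mrgpre*, *Mrgprf* and *Mrgprh* are orphan receptors. The transcription factor Runx1 is required in nociceptors for the onset of several of these receptors.

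In the annotation of GRCm38 (GENCODE), 34 genes carry a Mas-related name, 13 of them pseudogenes. Of these, 32 lie on chromosome 7, in a group of 28 from *Mrgpra6* to *Mrgprb11-ps* and a group of 4 from *Mrgprg* to *Mrgprd*, while *Mas1* and *Mrgprh* lie on chromosome 17. *Mrgpra3*, *Mrgprx1*, *Mrgprb5* and *Mrgprb4* belong to the large group, and *Mrgpre*, *Mrgprf* and *Mrgprd* to the small one. The members of the large group are similar in sequence, so reads could be shared between them. Every stretch of 100 bases of the 8 receptors' annotated transcripts was found in the transcripts of no other gene. For stretches of 50 bases the share found in no other gene was 92.9% in *Mrgpra3* and 94.2% in *Mrgprx1*, and at least 98.5% in the other six. Reads that match a receptor exactly over 100 bases can therefore be told from those of other annotated genes. Over 50 bases this holds for the shares given, which were lowest in *Mrgpra3* and *Mrgprx1*. Alignments with mismatches and copies outside the annotation were not checked. *Mrgpre* overlaps an annotated gene on the opposite strand, and the strand setting of the counting is not given in the sources used here.

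The windows around the annotated start of *Mrgprd*, *Mrgprx1* and *Mrgpra1* are printed because the levels of these genes varied in the same libraries, as described further on. Each window runs from 250 bases before to 50 bases after the start, 5′ to 3′ on the gene's strand, as given by RefSeq for GRCm38.p6, at chr7:145314585-145314884 (plus strand), chr7:48027548-48027847 (minus strand) and chr7:47354191-47354490 (minus strand). The core Runx motif TGTGGT was searched on both strands, and capitals mark a match, read as ACCACA where it lies on the opposite strand.
Mrgprd: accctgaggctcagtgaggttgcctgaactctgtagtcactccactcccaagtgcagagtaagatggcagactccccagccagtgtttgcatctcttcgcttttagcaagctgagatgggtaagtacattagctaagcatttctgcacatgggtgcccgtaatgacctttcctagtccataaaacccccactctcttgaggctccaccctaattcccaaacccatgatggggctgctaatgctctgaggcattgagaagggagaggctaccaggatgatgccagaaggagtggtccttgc
Mrgprx1: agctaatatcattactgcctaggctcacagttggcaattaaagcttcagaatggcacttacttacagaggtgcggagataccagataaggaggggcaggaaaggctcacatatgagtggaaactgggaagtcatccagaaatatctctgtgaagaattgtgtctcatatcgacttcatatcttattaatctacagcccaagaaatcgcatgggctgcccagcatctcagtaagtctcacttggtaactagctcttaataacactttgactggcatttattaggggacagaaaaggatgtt
Mrgpra1: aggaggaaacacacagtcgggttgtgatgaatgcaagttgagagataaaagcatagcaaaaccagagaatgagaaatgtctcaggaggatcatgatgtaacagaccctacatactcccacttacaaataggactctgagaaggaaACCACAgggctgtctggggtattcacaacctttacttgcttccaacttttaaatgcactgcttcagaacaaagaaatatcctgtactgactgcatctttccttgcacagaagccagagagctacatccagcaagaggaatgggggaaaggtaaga
The motif was absent from the *Mrgprd* and *Mrgprx1* windows and occurred once in that of *Mrgpra1*, before the start and on the opposite strand. Windows were at hand for 6 of the 8 receptors, without *Mrgpra3* and *Mrgprf*, and 1 of the 6, that of *Mrgprh*, held the motif. Over the family the motif stood in 4 of 18 windows (22.2%) and over all genes in 5506 of 32851 (16.8%). A match or its absence describes these letters in this window only.

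Of the 8 receptors, 4 were counted well above the filter and 4 were close to the limit of detection. Levels of different genes were compared per kilobase of exon model. *Mrgprx1* stood highest, at 170 ± 55.3 CPM per kb in control and 141 ± 58.8 in *WD1* cKO embryos (SD, n = 5 each), above the level of 99.2% of the tested genes. *Mrgprd* followed at 22.7 ± 6.2 and 23.3 ± 3.53 CPM per kb, above 88.0% of the tested genes. *Mrgpre* reached 7.86 ± 0.386 and 7.91 ± 0.475 CPM per kb and *Mrgprf* 4.30 ± 1.11 and 3.86 ± 0.841 CPM per kb. These 4 kept this order without overlap: the lowest library of *Mrgprx1* had 61.6 CPM per kb and the highest of *Mrgprd* 30.2, the lowest of *Mrgprd* 15.4 and the highest of *Mrgpre* 8.53, and the lowest of *Mrgpre* 7.38 and the highest of *Mrgprf* 5.73. Within a library, *Mrgprx1* exceeded *Mrgprd* per kb by between 3.33-fold in *WD1* cKO library 1 and 9.86-fold in control library 1.

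The other four receptors lay far below *Mrgprf*, whose lowest library was at 2.96 CPM per kb. *Mrgpra3* was at 0.205 ± 0.156 CPM per kb in control and 0.236 ± 0.152 in *WD1* cKO embryos, *Mrgprb5* at 0.126 ± 0.0486 and 0.157 ± 0.0970, and *Mrgprh* at 0.121 ± 0.0222 and 0.0730 ± 0.0278 (SD, n = 5 each). The libraries of these 3 overlapped, so that their order is not given by the data. *Mrgprb4* was the lowest, with 4 counts over all 10 libraries.

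**Figure D1:**
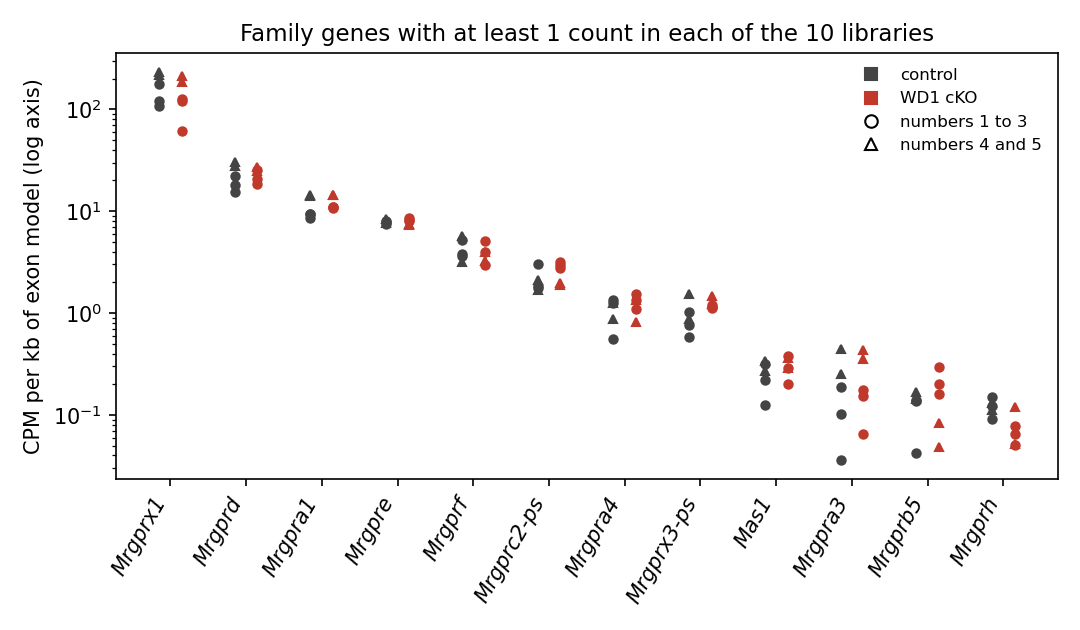
Level of each family gene that had at least 1 count in each of the 10 libraries, in CPM per kb of exon model on a log axis. Each point is a library, grey for control and red for *WD1* cKO, with circles for replicate numbers 1 to 3 and triangles for numbers 4 and 5. *Mrgprx1* and *Mrgprd* stand above the rest, and *Mrgpra3*, *Mrgprb5* and *Mrgprh* lie at the lower end with wide overlap.

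*Mrgprx1* (ENSMUSG00000070552) was the receptor with the widest spread among the 4 well counted. In control libraries 1 to 5 it was at 211, 141, 127, 271 and 256 CPM, and in *WD1* cKO libraries 1 to 5 at 72.7, 150, 143, 251 and 216 CPM. Libraries 4 and 5 were the highest of each group, *WD1* cKO library 1 was the lowest of all, and the groups overlapped. The log2 fold change, *WD1* cKO minus control, was -0.28 (standard error 0.296, 95% interval from -0.92 to 0.37, adjusted p = 1 by edgeR's quasi-likelihood test). The interval reaches from 1.9-fold lower to 1.3-fold higher, so a fall of up to that size lies within the error of this fit. That fit has no term for the replicate numbers, which are described further on. With a term for numbers 1 to 3 against 4 and 5 the estimate was -0.30 (standard error 0.178, edgeR adjusted p = 0.745). With no such term it was -0.086 without *WD1* cKO library 1 and -0.47 without *WD1* cKO library 4.

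*Mrgprd* (ENSMUSG00000051207), which marks non-peptidergic nociceptors, was at 56.9, 48.4, 69.3, 86.5 and 94.9 CPM in control libraries 1 to 5 and at 58.1, 79.7, 65.8, 85.5 and 77.0 CPM in *WD1* cKO libraries 1 to 5. The groups overlapped, and a *WD1* cKO library exceeded a control library in 13 of 25 pairs. The log2 fold change was 0.036 (standard error 0.167, 95% interval from -0.33 to 0.40, edgeR adjusted p = 1). With the term for replicate numbers it was 0.063 (standard error 0.109, edgeR adjusted p = 0.946). In the fit with no such term the sign turned without control library 1 (-0.033), without control library 2 (-0.075) and without *WD1* cKO library 4 (-0.023).

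The ratio of *Mrgprx1* to *Mrgprd* counts compares these receptors within a library and does not depend on the scaling. It was 2.86 ± 0.682 in control and 2.21 ± 0.691 in *WD1* cKO embryos (SD, n = 5), with ranges from 1.83 to 3.70 and from 1.25 to 2.94. The log2 difference of -0.40 was within the spread of the libraries (exact permutation test, two-sided p = 0.206).

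The orphan receptor *Mrgpre* (ENSMUSG00000048965) had the least spread of the 4. It was at 30.0, 29.2, 27.9, 28.9 and 31.8 CPM in control libraries 1 to 5 and at 30.6, 32.1, 30.2, 28.2 and 27.8 CPM in *WD1* cKO libraries 1 to 5, and its highest library exceeded its lowest by 1.16-fold. The log2 fold change was 0.0097 (standard error 0.0521, 95% interval from -0.10 to 0.12, edgeR adjusted p = 1), so that a change of the size seen for *Dach1* lay far outside the interval. The sign of so small a value turned when libraries were left out or the scaling was changed.

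*Mrgprf* (ENSMUSG00000031070), also an orphan receptor, was at 7.94, 8.41, 11.6, 12.7 and 6.99 CPM in control libraries 1 to 5 and at 6.56, 8.73, 11.4, 7.21 and 8.85 CPM in *WD1* cKO libraries 1 to 5. High and low libraries occurred in both groups. The log2 fold change was -0.15 (standard error 0.182, 95% interval from -0.55 to 0.24, edgeR adjusted p = 1), with values from -0.28 without *WD1* cKO library 3 to -0.021 without control library 4. Its level was also set beside the summed levels of smooth muscle and mural, connective tissue, skeletal muscle and pan-neuronal genes, 4 relations in all. Pearson's r over the 10 libraries, centred on the groups, was 0.213, 0.395, -0.360 and -0.366 in this order, and Spearman's rho -0.0303, 0.0667, -0.345 and -0.0667. Without the 2 libraries farthest from the median of the list, r was -0.247, -0.296, 0.447 and 0.471, the opposite sign each time. None of the 4 held in a permutation test (p = 0.565, 0.270, 0.315 and 0.307 for r, adjusted p = 0.565 for the first and 0.419 for the others, and for rho p = 0.946, 0.867, 0.333 and 0.863, each adjusted to 0.946).

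**Figure D2:**
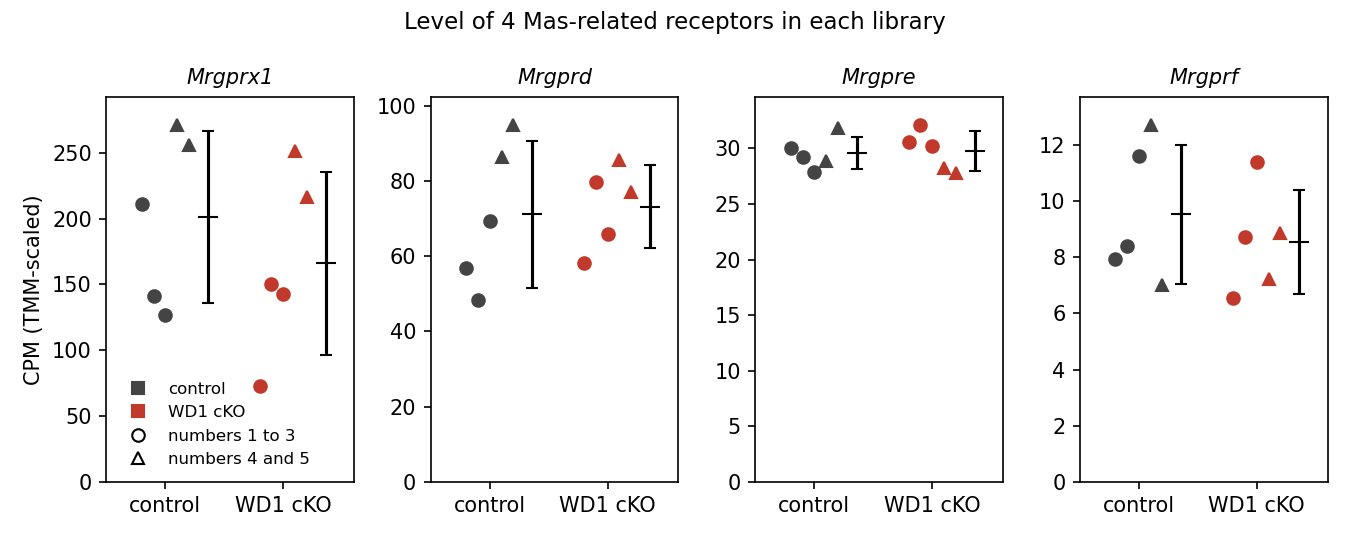
CPM of *Mrgprx1*, *Mrgprd*, *Mrgpre* and *Mrgprf* in each library, with libraries 1 to 5 from left to right in each group. Circles are replicate numbers 1 to 3 and triangles 4 and 5, and the bar beside each group is the mean ± SD of 5 libraries. The groups overlap for all 4 receptors, and the triangles of *Mrgprx1* lie above every circle.

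None of the 4 tested receptors had an adjusted p-value under 0.05 (0 of 4), where 0.0400% of the 17490 tested genes did (7 genes with edgeR and 19 with DESeq2). At an unadjusted p-value under 0.05 the count was also 0 of 4, beside 4.50% of all tested genes, and 0 of 4 had groups that did not overlap, beside 1.06%. With so few members a share near the background is no result about them. Their median log2 fold change was -0.071, 2 positive and 2 negative, beside 0.00022 over all tested genes.

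The 4 receptors under the filter are described by their counts. *Mrgpra3* (ENSMUSG00000078698) had 5, 3, 1, 9 and 13 counts in control libraries 1 to 5 and 2, 6, 6, 11 and 16 in *WD1* cKO libraries 1 to 5. Its counts were thus above 0 in every library, with 31 in control and 41 in *WD1* cKO embryos in all, and libraries 4 and 5 were the highest of each group. The highest level, 0.571 CPM in control library 5, had an exact binomial interval from 0.299 to 0.961 CPM (95%, on the unscaled library total, counting error only). The chloroquine receptor was therefore at the edge of detection at E18.5, while *Mrgprx1* of the itch neurons was abundant.

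*Mrgprb5* (ENSMUSG00000070551) had 3, 1, 3, 4 and 4 counts in control libraries 1 to 5 and 5, 8, 5, 1 and 3 in *WD1* cKO libraries 1 to 5. *Mrgprb4* (ENSMUSG00000070550) had a single count in control libraries 3 and 5 and in *WD1* cKO libraries 4 and 5 and none in the other six, where a count of 0 allows a level of up to between 0.1 and 0.147 CPM (3 counts in a library). The data thus hold almost no transcripts of *Mrgprb4*, which marks stroking-sensitive neurons. *Mrgprb5* was low, with 37 counts in all and at least 1 in each library.

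*Mrgprh* (ENSMUSG00000059408), which lies on chromosome 17 like *Mas1*, had 6, 4, 5, 7 and 5 counts in control libraries 1 to 5 and 3, 4, 3, 2 and 8 in *WD1* cKO libraries 1 to 5. A *WD1* cKO library exceeded a control library in 2 of 25 pairs, with a log2 CPM difference of -0.63 (exact permutation test, two-sided p = 0.0238, 1 of 34 such tests in the family). With no filter on low counts edgeR gave -0.66 (standard error 0.393, adjusted p = 0.777), which did not pass. *Mrgpra3*, *Mrgprb5* and *Mrgprb4* were at 0.18, 0.32 and -0.17 in the same fit, with standard errors of 0.513, 0.504 and 1.12 and adjusted p-values of 0.979, 0.932 and 0.979.

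Of the other 26 family genes 5 were tested. *Mrgpra1*, a relative of *Mrgpra3*, had from 191 to 547 counts and 11.1 ± 2.86 CPM per kb in control and 12.3 ± 1.94 in *WD1* cKO embryos (SD, n = 5), between *Mrgprd* and *Mrgpre*, and its libraries, from 8.55 to 14.5 CPM per kb, overlapped with those of neither. Its log2 fold change was 0.14 (95% interval from -0.21 to 0.49, edgeR adjusted p = 1). *Mrgpra4* had from 15 to 46 counts, *Mas1*, which responds to angiotensin peptides, from 7 to 33, and the pseudogenes *Mrgprc2-ps* and *Mrgprx3-ps* from 57 to 137 and from 11 to 47. Their log2 fold changes were 0.19, 0.26, 0.28 and 0.36, each with an adjusted p-value of 1 in edgeR's test. All 5 estimates were positive, but 0 of 5 had a p-value under 0.05 beside 4.50% of all tested genes, and the groups overlapped for each. Under alternative settings *Mrgpra1* passed an unadjusted p-value of 0.05 in 2 of 17 and *Mrgprc2-ps* and *Mrgprx3-ps* in 1 of 17 each, and within replicate numbers 1 to 3 *Mrgpra1* was at 0.27 with an unadjusted p-value under 0.05, but no adjusted p-value was under 0.05.

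The other 21 family genes were not tested. *Mrgpra6* and *Mrgpra18-ps* had no count. *Mrgprb3*, *Mrgprb8*, *Mrgprb9-ps*, *Mrgprc1-ps*, *Mrgprc3-ps*, *Mrgpra14*, *Mrgpra2a*, *Mrgprb7-ps* and *Mrgprg* had at most 1 count in a library, and *Mrgprx2*, *Mrgprc4-ps*, *Mrgprb2*, *Mrgprb13* and *Mrgprb1* at most 3. *Mrgprb1* had 0, 1, 1, 1 and 1 counts in control and 2, 2, 2, 3 and 2 in *WD1* cKO libraries 1 to 5, without overlap in CPM. Its log2 CPM difference was 0.78 (exact permutation test, two-sided p = 0.00794, the lowest of the 34 and the minimum for groups of 5), on 4 and 11 counts a group. It was singled out after its values were seen. *Mrgprb2*, the receptor of connective tissue mast cells, had 8 counts in all. *Mrgprb11-ps* reached 4, *Mrgpra9* 4, *Mrgprc7-ps* 5, *Mrgprb12-ps* 6 and *Mrgpra2b* 14, and *Mrgpra2a* and *Mrgpra2b* share 73.4% and 68.2% of their stretches of 100 bases, so that their counts are uncertain.

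**Figure D3:**
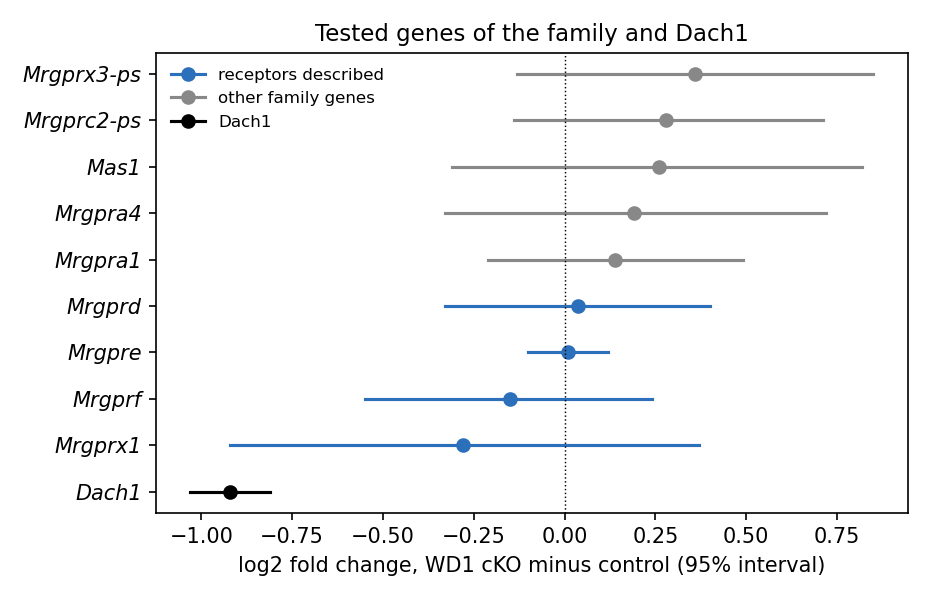
Log2 fold change, *WD1* cKO minus control, of the 9 tested family genes and *Dach1*, with 95% intervals from edgeR's quasi-likelihood fit. Blue marks *Mrgprd*, *Mrgprx1*, *Mrgpre* and *Mrgprf*, grey the other family genes and black *Dach1*. Each family interval spans 0, while that of *Dach1* runs from -1.03 to -0.81.

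The spread of *Mrgprx1* within the groups followed the replicate numbers of the titles, and that of *Mrgprd* did so with an exception in the *WD1* cKO group. Libraries 4 and 5 of both groups were compared with libraries 1 to 3 in an edgeR fit with terms for group and number. The labels do not say what the numbers mark, and the split was chosen with earlier results of these libraries known, so that its p-values are a description. *Mrgprx1* was between 216 and 271 CPM in the 4 libraries numbered 4 and 5 and between 72.7 and 211 CPM in the other six, a log2 difference of 0.83 (edgeR, adjusted p = 0.0109). *Mrgprd* was between 77.0 and 94.9 CPM against between 48.4 and 79.7 CPM, a log2 difference of 0.45 (adjusted p = 0.0209). *Mrgpre* and *Mrgprf* were at -0.043 and -0.026, with adjusted p-values of 0.657 and 0.952.

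The count of receptors higher in libraries 4 and 5 was thus 2 of 4, beside 6.46% of all tested genes. Among the receptors under the filter, *Mrgpra3* had between 9 and 16 counts in libraries 4 and 5 and between 1 and 6 in the others, with no overlap in CPM (from 0.331 to 0.571 against from 0.047 to 0.244). *Mrgprb5* (from 0.0507 to 0.176 against from 0.044 to 0.304 CPM) and *Mrgprh* (from 0.101 to 0.257 against from 0.0992 to 0.292 CPM) overlapped. The libraries of *Mrgprb4* overlapped too. The share of all genes without overlap by this split was not computed. *Mrgpra1* was between 15.5 and 15.8 CPM in libraries 4 and 5 and between 9.30 and 12.0 CPM in the others, a log2 difference of 0.53 (adjusted p = 0.000417). Of the other family genes tested, *Mrgprx3-ps* and *Mas1* were at 0.40 and 0.33, and *Mrgpra4* and *Mrgprc2-ps* at -0.17 and -0.43. Their adjusted p-values in the same edgeR fit were 0.242, 0.454, 0.715 and 0.11 in this order. *Mrgprx1* and *Mrgpra1* thus stood higher in libraries 4 and 5 of both genotypes, while *Dach1* did not (log2 difference -0.0039, edgeR adjusted p = 0.974). *Mrgprd* did so in the controls, but *WD1* cKO library 2, at 79.7 CPM, was above *WD1* cKO library 5, at 77.0 CPM. Control libraries 4 and 5 had totals of 27528784 and 23141760, above the other controls, of which the highest had 22544236. *WD1* cKO libraries 4 and 5 held the lowest and the highest total, 19757596 and 34796562. The part that depth had in the split was not tested.

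Genes of other lists moved with this split too. Of the non-peptidergic nociceptor genes 7 of 13 were higher and 0 lower in libraries 4 and 5, of the itch neuron genes 4 of 14 were higher and 1 lower, and of the peptidergic nociceptor genes 5 of 9 were higher and 2 lower. The pan-neuronal genes had 3 of 13 higher and 2 lower, the glia genes 4 of 9 higher and 1 lower, and the C-LTMR genes, of touch neurons without myelin, 0 of 7 higher and 1 lower. The nociceptor regulators went the other way, with 0 of 14 higher and 4 lower, as did the mast cell genes, with 0 of 6 higher and 3 lower. Of the receptor signalling genes 4 of 19 were higher and 0 lower, of the smooth muscle and mural genes 1 of 9 higher and 1 lower, of the connective tissue genes 0 of 9 higher and 1 lower, and of the skeletal muscle genes 0 of 9 in either direction. Over all tested genes 1130 were higher and 945 lower. The part that cell composition, stage or handling had in this was not tested.

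Within the libraries numbered 1 to 3 the log2 fold change between the groups was -0.39 for *Mrgprx1*, 0.22 for *Mrgprd*, 0.091 for *Mrgpre* and -0.06 for *Mrgprf*. Within 4 and 5 it was -0.18, -0.16, -0.12 and -0.29 in this order. Each of the 8 values had an adjusted p-value of at least 0.762 in edgeR's test, and *Mrgprx1* and *Mrgprd* within 4 and 5 had an unadjusted p-value under 0.05. *Mrgprx1* and *Mrgprf* kept a negative sign in both subsets, whereas *Mrgprd* and *Mrgpre* changed sign. These subsets were formed after the values were seen, and that of numbers 4 and 5 has 2 libraries a group.

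Over the 10 libraries, centred on the groups, log2 CPM of *Mrgprd* and *Mrgprx1* had a Pearson r of 0.698 (permutation p = 0.0262, adjusted p = 0.0874 over 10 pairs of receptors) and a Spearman rho of 0.733 (permutation p = 0.0201, adjusted p = 0.101). Without the 2 libraries farthest from the median of *Mrgprd* r was 0.693. After centring also on the replicate number class it was 0.360, a value that was not tested, so a relation beyond the split was not shown. *Mrgpra1* fell into separate clusters by the split, and within the classes its r with *Mrgprd* was 0.263 and with *Mrgprx1* -0.310. For the pairs with *Mrgpre* or *Mrgprf*, r lay between -0.356 and 0.123, with permutation p-values of at least 0.305. After centring also on the number class r lay between -0.757, for *Mrgpre* with *Mrgprf*, and 0.442, for *Mrgprf* with *Mrgpra1*, and these values were not tested.

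**Figure D4:**
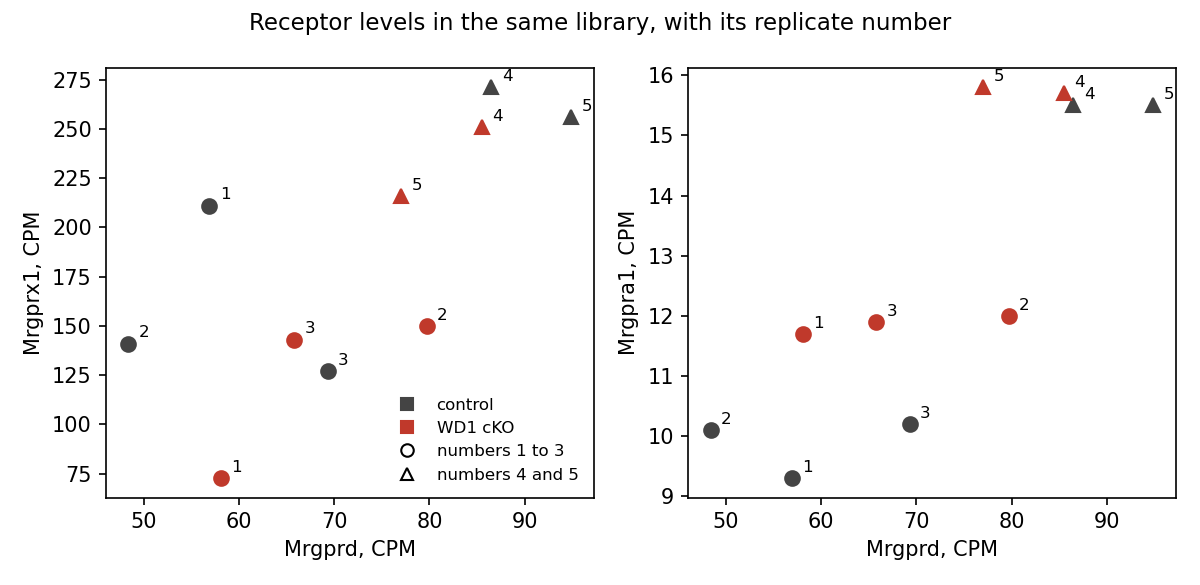
CPM of *Mrgprx1* (left) and *Mrgpra1* (right) against CPM of *Mrgprd* in the same library, with the replicate number beside each point. Grey is control and red *WD1* cKO, circles are numbers 1 to 3 and triangles 4 and 5. The triangles of both groups lie towards the upper right, with *Mrgpra1* between 15.5 and 15.8 CPM. For *Mrgprd* the circle of *WD1* cKO library 2 (79.7 CPM) lies to the right of the triangle of *WD1* cKO library 5 (77.0 CPM).

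The genes with a pattern most like that of 3 receptors were searched among 14849 tested protein-coding genes outside the family, by Pearson's r of log2 CPM over the 10 libraries centred on the groups. The genes nearest to *Mrgprd* were *Plcb3* (r = 0.990), *Slc16a3* (r = 0.987) and *Tnr* (r = 0.986). *Plcb3* encodes phospholipase C beta 3, an effector of Gq-coupled receptors, *Slc16a3* a monocarboxylate transporter and *Tnr* the matrix protein tenascin-R. After centring also on the number class r was 0.979, 0.958 and 0.957, computed in the same libraries that chose the genes. *Plcb3* ranged from 261 to 308 CPM in libraries 1 to 3 and from 310 to 347 CPM in libraries 4 and 5.

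The nearest to *Mrgprx1* were *Ankrd24* (r = 0.960), *Fam167a* (r = 0.937) and *Srrm2* (r = 0.935), and those nearest to *Mrgpra3* were *Slc25a32* (r = 0.969), *Cyp2j6* (r = 0.968) and *Asic2*, an acid-sensing ion channel (r = 0.954). *Mrgpra3* rests on 1 to 16 counts, and these values are the highest of 14849, so they are given as a description. After centring also on the number class r was 0.917, 0.880 and 0.798 for the genes nearest to *Mrgprx1* and 0.913, 0.913 and 0.857 for those nearest to *Mrgpra3*. None of these 9 genes was called between the groups (edgeR, adjusted p = 1 each).

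The genes that act with the receptors were described by lists, and some genes stand in more than 1 list. Of 19 tested receptor signalling genes (G protein subunits, phospholipase C beta, TRP channels, arrestins and others) 6 had a positive and 13 a negative log2 fold change, with a median of -0.019 and 0 called. The highest was *Plcb2* at 0.14, and the lowest were *Penk*, the enkephalin precursor whose product includes a peptide of the BAM type, at -0.18 and the Gi subunit gene *Gnai2* at -0.16. *Gnai2* was between 250 and 321 CPM in control and between 235 and 276 CPM in *WD1* cKO libraries, with overlap, and was the one with an unadjusted p-value under 0.05 (edgeR adjusted p = 1), which is 1 of 19 beside 4.50% of all tested genes.

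Among 13 non-peptidergic nociceptor genes 8 were positive and 5 negative, with a median of 0.042 and 0 called. *Lpar5*, a lysophosphatidic acid receptor, was at 0.17 and the channel gene *Trpa1* at -0.10, and the sodium channel gene *Scn11a* at -0.065. *Gfra2*, the neurturin co-receptor, was between 88.8 and 103 CPM in control and between 101 and 111 CPM in *WD1* cKO libraries. Its log2 fold change was 0.14 (unadjusted p-value under 0.05, edgeR adjusted p = 1). Among 14 itch neuron genes 4 were positive and 10 negative, with a median of -0.049, from -0.28 for the protease receptor gene *F2rl1* and for *Ptgdr*, a prostaglandin receptor, to 0.27 for the serotonin receptor gene *Htr1f* and 0.60 for the leukotriene receptor gene *Cysltr2*. None of the 14 had a p-value under 0.05.

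The 14 nociceptor regulators, with *Runx1* and its partner *Cbfb* among them, had 3 positive and 11 negative values with a median of -0.065 and 0 called. Their values ran from -0.12 for *Isl1* and -0.11 for *Pou4f1*, homeodomain factors of sensory neurons, to 0.061 for *Zeb2* and 0.083 for *Ret*. The 9 peptidergic nociceptor genes had 3 positive and 6 negative values with a median of -0.027 and 0 called, and *Trpv1* was at -0.09, *Adcyap1* at 0.023 and *Tac1* at 0.19.

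In the 7 C-LTMR genes 2 were positive and 5 negative, with a median of -0.068. *Slc17a8*, a vesicular glutamate transporter, was between 5.33 and 7.44 CPM in control and between 3.95 and 5.59 CPM in *WD1* cKO libraries, with a log2 fold change of -0.36 (edgeR, adjusted p = 1). *Th* was at -0.30, and *Fam19a4* at 0.023 and *Gfra2* were the positive ones. With *Gfra2* this made 2 of 7 with an unadjusted p-value under 0.05, beside 4.50% of all tested genes, and 0 of 7 called.

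Genes of other cells in the ganglia were set beside the receptors. The 13 pan-neuronal genes had a median of -0.0091 (5 positive, 8 negative, from -0.12 for *Isl1* and -0.085 for *Rbfox3* to 0.083 for *Nefl* and 0.12 for *Nefm*) and the 9 glia genes one of 0.023 (6 positive, 3 negative, from -0.029 for *Apoe* and -0.028 for *Cdh19* to 0.092 for *Erbb3* and 0.14 for *S100b*). The sums of the pan-neuronal genes overlapped between the groups, from 13800 to 16400 CPM in control and from 15000 to 17000 CPM in *WD1* cKO libraries. The 9 connective tissue genes had a median of 0.085, with *Postn* at 0.19 and *Lum* at 0.22 the highest, both with an unadjusted p-value under 0.05 and an adjusted p-value of 1 in edgeR's test (2 of 9, beside 4.50% of all tested genes), and *Fbn1* at -0.028 and *Ogn* at -0.014 the lowest. The 9 smooth muscle and mural genes had one of -0.062, from -0.59 for *Des* and -0.37 for *Tagln* to 0.039 for *Pdgfrb* and 0.051 for *Rgs5*.

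Skeletal muscle genes were negative in 9 of 9, with a median of -0.52 and 0 with a p-value under 0.05, from *Ckm* and *Myh8* at -0.79 to *Myh3* at -0.48 and *Neb* at -0.43. Their sum ran from 37.5 to 242 CPM in control libraries, with control library 5 the highest, and from 65.1 to 134 CPM in *WD1* cKO libraries. No spinal cord gene of 6 was tested, and their sum was at most 1.42 CPM apart from control library 3, at 15.8 CPM. Of 10 mast cell genes 6 were tested, with a median of -0.12, from -0.26 for *Gata2* and -0.22 for *Hdc* to 0.0038 for *Cma1* and 0.020 for *Kit*, which neurons also express. The defining *Cma1* was between 0.761 and 2.44 CPM over the 10 libraries. The part of other cell types in the levels of *Mrgprf* and of the other receptors was not tested beyond these values.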

How the data were processed

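Stranded mRNA libraries were made from E18.5 DRG, 5 for control and 5 for *WD1* cKO. Per the labels, the authors used bcl2fastq 2.20.0.422, STAR 2.7.8a on GRCm39 and featureCounts 2.0.1, and deposited raw counts per gene for each library. The strand setting and the handling of reads with several positions are not given in the sources used here. The total count per library, from 19757596 to 34796562, sets the precision, and intervals on counts cover counting error only. Counts of any pair of libraries in a group differed beyond sampling noise (chi-square over its degrees of freedom between 4.33 and 15.7), and each library was 1 replicate. No row of the files lacked a gene.

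The receptors and lists were chosen with earlier results of these data known. Symbols (52081 of 55414 identifiers), gene order and exon models came from GENCODE for GRCm38, while the counts were made on GRCm39. The lengths behind CPM per kb may thus differ from those of the annotation used for counting. Promoter windows came from RefSeq. Counts were scaled by TMM and compared in R 4.3.3 with edgeR 4.0.16 (quasi-likelihood test, at least 10 counts in at least 5 libraries, 17490 genes, Benjamini-Hochberg adjustment over all, no block or covariate). Exact permutation tests were two-sided and used log2 CPM (prior count 1), in Python 3.11.15. Named are all family genes with counts, in each list the 2 highest and 2 lowest log2 fold changes and any p-value under 0.01, and 3 similar genes for 3 receptors. Genes named for an unadjusted p-value under 0.05 or as a defining marker, and *Runx1*, *Cbfb* and the receptors' class ranges, were added after their values were seen. The lists were other family members, itch neuron, non-peptidergic nociceptor, receptor signalling, nociceptor regulator, peptidergic nociceptor, C-LTMR, pan-neuronal, glia, mast cell, smooth muscle and mural, connective tissue, skeletal muscle and spinal cord genes. *Mas1l* of the first list matched no identifier.

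Alternatives were DESeq2's size factors, scaling by pan-neuronal genes, no filter, a replicate block, a term for replicate numbers 1 to 3 against 4 and 5, *Xist* as a covariate, the Wald test of DESeq2 1.42.0, each library left out, and CPM from total counts. The tests were checked on simulated data with 17324 genes for the comparison of the groups. There edgeR called 54% of the genes given a log2 fold change of 0.5 and 90% at 1. These shares are over all genes given a change of that size. The share at the standard error of *Mrgprx1* (0.296), *Mrgprf* (0.182) or *Mrgprd* (0.167) was not tested. Other data of the study were not analysed here. Not every gene picked by the naming rule is reported.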

Additional observations from a re-analysis of the deposited data

Results flagged for a closer look

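In 30 groups of 5 libraries (levels of the counted family genes, of *Dach1* and of the receptor ratio in each genotype) 2 libraries stood apart by Dixon's test, where chance gives about 1 in 20, or 1.5. *Mrgprb5* was at 0.044 CPM in control library 2, while the other control libraries lay between 0.141 and 0.176 CPM, a difference between 1 count and 3 or 4 counts. The pseudogene *Mrgprx3-ps* was at 1.35 CPM in *WD1* cKO library 5, while the other *WD1* cKO libraries lay between 1.02 and 1.12 CPM.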

How the results depend on the processing

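The count of receptors with an adjusted p-value under 0.05 was 0 under each of the 17 alternatives below, as was the count at an unadjusted p-value under 0.05. In the added fit within replicate numbers 4 and 5, *Mrgprx1* and *Mrgprd* had an unadjusted p-value under 0.05. Of the other 5 tested family genes, *Mrgpra1* had one with the block and with the number term, *Mrgprc2-ps* without control replicate 2 and *Mrgprx3-ps* without control replicate 5, with adjusted p-values of at least 0.601, 0.747 and 0.72 over their alternatives. Over the 17 alternatives the adjusted p-value was at least 0.939 for *Mrgprd*, 0.745 for *Mrgprx1*, 0.957 for *Mrgpre* and 0.864 for *Mrgprf*. All list medians moved by less than 1 SD between libraries, and group levels from total counts in place of TMM scaling did too. The number of genes called among all genes was 7, and 11 with the term for replicate numbers, 19 in the Wald test of DESeq2, 4 when *Xist* was a covariate and from 3 to 6 with each library left out, such as 3 without control replicate 1.

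With the replicate number as a block 8 genes and 0 receptors were called. Same-numbered libraries of the groups had correlated deviations (r = 0.409, 0.0586, 0.335, 0.421 and 0.437 for numbers 1 to 5), and 4 of 5 numbers correlated best with their own number, a hint from the data only. As number 2 was under 0.1, the numbers were not treated as pairs.

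Estimates near 0 changed sign under scaling by pan-neuronal genes, which shifted the median of all genes by -0.028: *Mrgpre* to -0.016, *Adcyap1* to -0.0035, *Cma1* to -0.041, *Fam19a4* to -0.0032 and *Kit* to -0.0098. *Cma1* was also at -0.011 with the block, -0.0025 with the number term and -0.0069 with DESeq2, and *Trpa1* at 0.029 with *Xist*. With each library left out, the log2 fold change changed sign in these ranges: *Mrgprd* from -0.075 to 0.16, *Mrgpre* -0.019 to 0.037, *Adcyap1* -0.023 to 0.07, *Apoe* -0.072 to 0.0075, *Cma1* -0.15 to 0.26, *Fam19a4* -0.0062 to 0.055, *Fbn1* -0.072 to 0.025, *Gata2* -0.45 to 0.42, *Kit* -0.0069 to 0.066, *Myh3* -0.93 to 0.055, *Nefl* -0.0012 to 0.13, *Ogn* -0.087 to 0.031, *Plcb2* -0.0087 to 0.25, *Rgs5* -0.025 to 0.17, *Scn11a* -0.14 to 0.02, *Trpa1* -0.39 to 0.19 and *Trpv1* -0.15 to 0.0092. The cause was not tested. Low counts limit *Mrgpra3*, *Mrgprb4*, *Mrgprb5* and *Mrgprh*, for which the groups could only have been told apart at large differences. The fits within replicate numbers 1 to 3 and within 4 and 5 were added after seeing the data.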
